A study of Oryza sativa with 15 samples.

Results

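AGPS2, AGPL2 and BT1 are 3 rice genes that make ADP-glucose in the endosperm and carry it into the plastid where starch is built. They were chosen by locus name: LOC_Os08g25734 (AGPS2), LOC_Os01g44220 (AGPL2) and LOC_Os02g10800 (BT1). They are 3 of the 13828 loci in the allele tables analysed here. All 3 have reads in the LR-RL crosses, at 14 single-nucleotide polymorphisms (SNPs) between the parents. AGPS2 and BT1 have reads in the YW-WY crosses, at 11 SNPs, and AGPL2 in YW-WY was not analysed here. Together the SNPs lie at 15 different positions.

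ADP-glucose is the sugar donor for starch. It is made from glucose 1-phosphate and ATP by ADP-glucose pyrophosphorylase (AGPase), an enzyme of paired small and large subunits that is regarded as a main control point of starch synthesis. In cereal endosperm most of this enzyme sits in the cytosol. AGPS2 encodes a small subunit and AGPL2 a large subunit of that cytosolic enzyme. BT1, named after the maize gene Brittle1, encodes a transporter of the inner envelope of the amyloplast, the starch-forming plastid, and carries ADP-glucose inward. Loss of any of these genes gives shrunken or chalky grains in rice or maize.

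RNA was sequenced from endosperm 5 days after fertilization. The LR cross had the japonica line Liuqianxin-A as mother and the indica line Rongfeng-B as father, and the RL cross had Rongfeng-A as mother and Liuqianxin-B as father. The YW cross had the japonica line Yu6-A as mother and the indica line Wufeng-B as father, and the WY cross had Wufeng-A as mother and Yu6-B as father. Lines ending in A are cytoplasmic male sterile and lines ending in B are their fertile maintainers, so every hybrid endosperm carries the cytoplasm of a sterile line. Each replicate pooled 20 to 30 endosperms, and the tables hold 1 maternal and 1 paternal read count per SNP and cross, pooled over 3 libraries each of LR and RL and 2 each of YW and WY. The 5 libraries of inbred controls were not used here. Errors within a cross set are therefore counting errors, not the spread between plants or libraries, and no difference was tested against that spread. Only the joint fits near the end carry an error estimated between the cross sets.

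The allele reads numbered 29714227 in LR and 34433249 in RL, with 29149713 in YW and 29302004 in WY. Endosperm has 2 maternal genomes and 1 paternal genome, so equal use of every copy gives a maternal share of 66.7%. The maternal share of the median tested locus was 67.1% in LR, against 63.75% in RL, and 75.1% in YW, against 62.9% in WY. YW stood apart from this dosage over the whole table, and calls that involve it are given against the cross medians as well. Loci annotated as glutelins or prolamins, with RPBF, NF-YB1 and FIE1, served as endosperm markers. Levels are in RPM, here reads per 1000000 allele reads of the cross, both alleles together. Their summed level was 105096 RPM in LR and 231259 in RL over 26 loci, and 252407 in YW and 251764 in WY over 23 loci. Green seed tissue markers were chlorophyll-binding proteins and the small subunit of ribulose bisphosphate carboxylase. They summed to 108 RPM in LR and 42.7 in RL over 2 loci, and to 181 in YW and 80.1 in WY over 4 loci. The maternal share of these reads was 47.5% in LR and 76.4% in RL, and 54.5% in YW and 71.4% in WY. Their sum therefore does not measure maternal tissue alone. The nucellus marker MADS29 and the embryo marker OSH1 were not analysed here.

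The SNPs that tell the parental alleles apart in these genes are given first, because every allele count below was read at one of them. Each is written as the reference base, the position on the chromosome, and the alternative base. Positions are as the authors' tables give them; no source used here names the genome build. In the LR-RL table the reference base of all 14 SNPs is the Liuqianxin base. A japonica excess in LR-RL and a preference of read mapping for the reference base therefore cannot be told apart here. The tables give a position in the listed transcript but do not say whether a base is coding or in a UTR.

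AGPS2 has 6 SNPs on chromosome 8, and the same 6 served both cross sets. They are T15668696C at transcript base 987, A15668056C at base 1329, A15666905G at base 1614, C15666570T at base 1694, C15666465A at base 1799 and A15666434G at base 1830. Transcript position falls as chromosome position rises, so the gene lies on the minus strand. Between neighbouring SNPs the chromosome distance exceeds the transcript distance by 298, 866 and 255 bases in the first 3 intervals, which places at least 1 intron in each. It exceeds it by 0 in the last 2 intervals, so no intron lies between the last 3 SNPs. The tables list the locus as a large subunit of AGPase, which goes against its name here. RefSeq (assembly ASM3414082v1) lists AGPS2 on chromosome 8 with the transcript names OsAGPS2a and OsAGPS2b, and the allele counts do not tell these transcripts apart.

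AGPL2 has 2 SNPs on chromosome 1, G25353917C at transcript base 149 and T25360548C at base 1672. The first is covered by 12 reads in LR and 13 in RL, so the value of the gene rests on the second, with 112850 reads in LR and 112226 in RL.

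BT1 has 7 SNP positions on chromosome 2, on the plus strand, in a locus the tables annotate as a mitochondrial carrier protein, the family to which BT1 belongs. C5736616G at transcript base 13, C5737044A at base 371, G5738033A at base 911 and T5738719A at base 1597 were read in both sets. T5736913C at base 240 and T5736960G at base 287 were read in LR-RL, and G5737523A at base 774 in YW-WY. Skipped lengths of 70, 76 and 373 bases place introns between bases 13 and 240, between 371 and 774, and between 774 and 911.

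All 3 genes were among the most deeply read loci. The best covered SNP of AGPS2 had 2971 RPM in LR against 2556 in RL, and 1042 in YW against 1905 in WY. It ranked 6 in LR and 12 in RL of 12299 loci, and 25 in YW and 19 in WY of 12378. AGPL2 had 3798 RPM at its best SNP in LR (rank 2) and 3259 in RL (rank 10). BT1 had 1859 in LR (rank 19), 1240 in RL (rank 33), 995 in YW (rank 28) and 2154 in WY (rank 16). The median locus had between 2.97 and 4.22 RPM at its best SNP in these crosses.

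The small subunit gene AGPS2 was expressed from both parental genomes, with a modest excess of japonica-allele reads over the 2 to 1 dosage. In YW-WY this excess was about that of the median locus. The maternal share of AGPS2 was furthest from dosage in YW, as was that of the median locus. The part of read mapping to the reference base in the japonica excess was not tested. Summed over its SNPs it had 188435 maternal and 74205 paternal reads in LR, and 174265 maternal and 107324 paternal reads in RL. This gave maternal shares of 71.7% (95% Wilson interval 71.6 to 71.9) in LR and 61.9% (61.7 to 62.1) in RL. In the other set it had 77187 maternal and 23235 paternal reads in YW, and 126732 maternal and 69329 paternal reads in WY. This gave maternal shares of 76.9% (76.6 to 77.1) in YW and 64.6% (64.4 to 64.9) in WY. In both sets the share lay above 66.7% where the mother was japonica and below it where the mother was indica, and no 2 intervals of the 4 crosses overlapped.

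The departures from dosage were expressed as a mean over both crosses of a set. The parental departure is the log2 of maternal over paternal reads relative to 2 to 1, and the strain departure is the log2 of japonica over indica reads relative to the same dosage. For AGPS2 in LR-RL the parental departure was 0.02 and the strain departure 0.32, each with a counting SE of 0.0042. In YW-WY they were 0.30 and 0.43, with an SE of 0.0064. On a linear scale the strain departure was 1.25-fold in LR-RL and 1.35-fold in YW-WY in favour of the japonica allele. The signed median over all tested loci was 0.10 in LR-RL, against 0.41 in YW-WY, so in YW-WY the strain departure of AGPS2 was about that of the median locus. Against the cross medians it was 0.22 in LR-RL, against 0.017 (1.01-fold) in YW-WY, where the japonica call was lost. Over all tested loci the median size of the strain departure was 0.34 in LR-RL and 0.53 in YW-WY, so AGPS2 was not far from dosage by the standard of these crosses.

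The large subunit gene AGPL2 lay nearer still to dosage. It had 77912 maternal and 34950 paternal reads in LR, and 74406 maternal and 37833 paternal reads in RL. Its maternal share was 69.0% (68.8 to 69.3) in LR and 66.3% (66.0 to 66.6) in RL. The parental departure was 0.07 and the strain departure 0.09, with an SE of 0.0065. In RL the upper limit of the interval was just under 66.7%. Of all tested loci in LR-RL, 15.9% had a smaller strain departure.

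The transporter gene BT1 also stayed near dosage when its SNPs were summed, although its single SNPs favoured opposite strains, as given below. It had 101899 maternal and 61241 paternal reads in LR, and 87599 maternal and 45292 paternal reads in RL. Its maternal share was 62.5% (62.2 to 62.7) in LR and 65.9% (65.7 to 66.2) in RL. In the other set it had 47307 maternal and 22338 paternal reads in YW, and 71759 maternal and 37247 paternal reads in WY. Here its share was 67.9% (67.6 to 68.3) in YW, against 65.8% (65.5 to 66.1) in WY. The parental departure was -0.16 and the strain departure -0.11 in LR-RL (SE 0.0056), and 0.01 and 0.07 in YW-WY (SE 0.0075). Unlike AGPS2, its share in the cross with the japonica mother was below dosage in LR-RL and slightly above it in YW-WY.

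**Figure D1:**
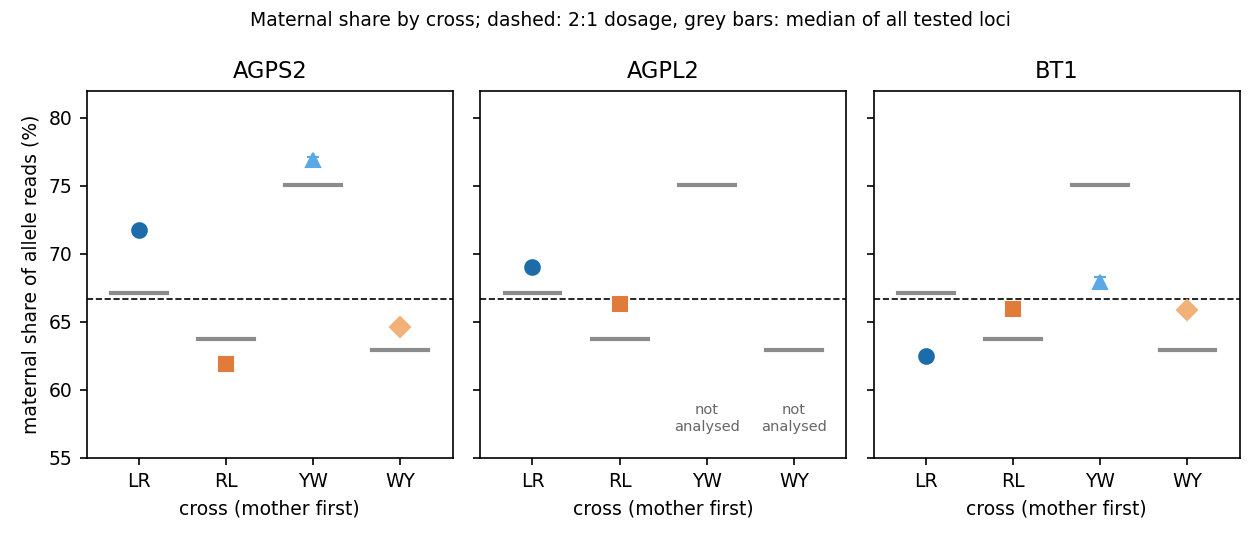
Maternal share of allele reads (percent, vertical axis) of AGPS2, AGPL2 and BT1 in each cross, with 95% Wilson intervals, mostly smaller than the points. The dashed line is the 66.7% given by dosage and the grey bars are the medians of all tested loci. The members lie between 61.9% and 76.9%, and AGPS2 follows the grey bars more closely than BT1 does in YW.

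An exact two-sided binomial test set the reads of each locus against 2 to 1 in each cross. The larger p of a set was adjusted by the Benjamini-Hochberg method over 10867 loci in LR-RL and over 11443 loci in YW-WY. A call needed an adjusted p under 0.05. A maternal or paternal call needed the same side of dosage in both crosses, and a japonica or indica call opposite sides. In LR-RL 2 of the 3 members had a japonica call, against 20.2% of all tested loci, and 1 had a paternal call, against 6.87%. In YW-WY both members tested had a japonica call, against 32.4% of all tested loci. A maternal call was held by 2.03% of loci in LR-RL and by 5.99% in YW-WY, and by 0 members. Paternal calls in YW-WY (3.73% of loci) and indica calls (11.1% in LR-RL, 5.23% in YW-WY) were likewise held by 0 members. At these depths the test passes on very small departures, and any call at all was held by 40.2% of loci in LR-RL and 47.4% in YW-WY, so being called says little about the members.

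AGPS2 had the japonica call in LR-RL, where the adjusted p of the exact binomial test was too small to be written as a number, and in YW-WY (7.05e-79). AGPL2 had the japonica call with an adjusted p of 0.0216 in the exact binomial test. BT1 was called paternal in LR-RL (adjusted p of the exact test 3.79e-08) and japonica in YW-WY (2.23e-08). A read that covers several SNPs is counted at each, so these p-values understate even the counting error.

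Set against the median of each cross instead of 2 to 1, the calls shifted. AGPS2 kept its japonica call in LR-RL, with 16.2% of all loci so called, but was called maternal in YW-WY, with 3.36% of loci so called. Its share there was above the cross median by 1.81 percentage points in YW and by 1.73 in WY. AGPL2 was called maternal, with 2.96% of loci so called, and lay above the median by 1.94 points in LR and by 2.54 in RL. BT1 was called indica in both sets, with 14.3% of loci so called in LR-RL and 13.5% in YW-WY. Paternal calls against the medians (5.73% of loci in LR-RL, 5.58% in YW-WY) and a japonica call in YW-WY (17.5%) were held by 0 members. The BT1 share differed from the median by -4.63 points in LR against 2.17 in RL, and -7.13 in YW against 2.92 in WY. The japonica call of AGPS2 in LR-RL was the only call of a member that was the same under both standards.

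The sums were then set beside the single SNPs. In AGPS2 these gave similar shares. The japonica allele held 70.1% of reads in LR against 36.5% in RL, and 77.0% in YW against 35.2% in WY at base 987. At base 1329 it held 74.9% in LR against 41.5% in RL, and 79.4% in YW against 39.4% in WY. At base 1614 it held 69.6% in LR against 35.9% in RL, and 75.4% in YW against 33.1% in WY. Base 1329 had the highest japonica share of the 6 SNPs in every cross.

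The remaining AGPS2 SNPs lie together at the 3′ end of the region read. At base 1694 the japonica share was 70.7% in LR against 37.3% in RL, and 75.9% in YW against 33.9% in WY. At base 1799 it was 70.5% in LR against 37.3% in RL, and 73.2% in YW against 31.4% in WY. At base 1830 it was 70.6% in LR against 37.2% in RL, and 74.1% in YW against 32.3% in WY. In LR-RL all 6 SNPs lay on the japonica side of dosage in both crosses. In YW-WY 3 SNPs lay on the japonica side and 3 on the maternal side, because the japonica share in WY straddled 33.3%.

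The strain departure of AGPS2 ranged over its SNPs from 0.18 to 0.54 in LR-RL and from 0.16 to 0.66 in the YW-WY crosses. The parental departure ranged from 0.0015 to 0.036 in LR-RL and from 0.28 to 0.31 in the other set. Left out 1 at a time, none of the 6 SNPs changed the call against 2 to 1 in either set. In YW-WY the adjusted p of the exact binomial test was 0.00181 without base 1329, against 7.05e-79 with all 6. Without base 1329 the maternal share was 70.1% in LR and 63.4% in RL, and 75.8% in YW and 66.2% in WY, the nearest to dosage of these subsets in every cross.

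At AGPL2 base 1672 the japonica allele held 69.0% (68.8 to 69.3) of reads in LR and 33.7% (33.4 to 34.0) in RL. At base 149 it held 50% in LR and 46.2% in RL, with intervals of 25.4 to 74.6 and 23.2 to 70.9 that include the dosage values. The call was unchanged without base 149.

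BT1 behaved differently. At base 13 the japonica allele held 96.0% of reads in LR against 85.6% in RL, and 98.7% in YW against 96.4% in WY, whichever parent was the mother. The depth there was 3739 reads in LR against 2112 in RL, and 3091 in YW against 3577 in WY. At base 911 it held 27.3% in LR against 10.8% in RL, and 56.6% in YW against 20.8% in WY, below dosage in all 4 crosses, with 20597 reads in LR against 22787 in RL, and 11990 in YW against 27919 in WY. These 2 SNPs of one transcript gave the highest and the lowest japonica share of the gene in every cross.

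Between them the BT1 shares were close to dosage. At base 240 the japonica share was 67.7% in LR and 38.9% in RL, and at base 287 it was 68.1% in LR and 38.9% in RL. At base 371 it was 64.9% in LR against 36.7% in RL, and 70.7% in YW against 26.8% in WY. At base 774 it was 66.5% in YW and 37.2% in WY. Bases 240 and 287 lie 47 bases apart and gave nearly the same shares.

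The last BT1 SNP, at base 1597, went opposite ways in the 2 sets. Its japonica share was 48.9% in LR and 21.6% in RL, below dosage in both, and 74.5% in YW and 37.5% in WY, above dosage in both. Its depth was 3196 reads in LR against 2606 in RL, and 3007 in YW against 6074 in WY. No interval at this SNP includes the dosage value of its cross.

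**Figure D2:**
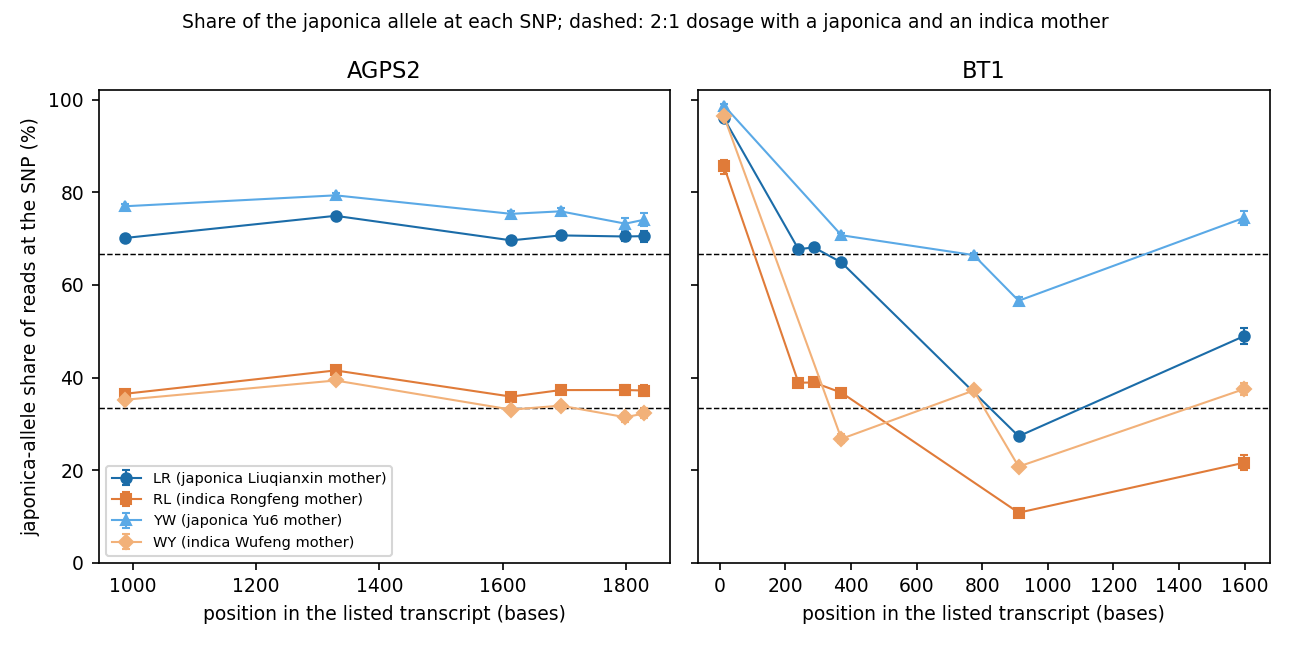
Share of reads with the japonica allele (percent) at each SNP, against its position in the listed transcript (bases), for AGPS2 and BT1, with 95% Wilson intervals. Dashed lines mark 66.7% and 33.3%, the dosage with a japonica and with an indica mother. AGPS2 runs nearly flat in all 4 crosses, and BT1 runs from above 85% at base 13 to a low point at base 911.

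The BT1 strain departure ranged over SNPs from -2.23 to 3.57 in LR-RL and from -0.77 to 5.51 in YW-WY. To see how common such a range is, it was compared with all loci that had at least 4 SNPs of at least 500 reads in each cross, a comparison chosen after the values had been seen. The BT1 range of 5.79 in LR-RL was matched or exceeded by 17 of 479 loci (3.55%), and its range of 6.28 in YW-WY by 26 of 415 (6.27%). The AGPS2 range of 0.36 in LR-RL was matched or exceeded by 274 of the 479, and its range of 0.50 in YW-WY by 173 of the 415.

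The parental departure of BT1 varied far less between SNPs than its strain departure. It ranged from -0.18 to -0.0021 in LR-RL, below 0 at all 6 SNPs, and 47.6% of the compared loci had a range as wide. In YW-WY it ranged from -0.24 to 0.36, and 18.8% of the loci had a range as wide. The SNPs thus disagreed mostly about which strain's allele was in excess.

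By the side of dosage, 3 BT1 SNPs in LR-RL were on the japonica side, 2 on the indica side and 1 on the paternal side. In YW-WY 2 were on the japonica side and 1 each on the indica, maternal and paternal sides. Leaving out 1 SNP at a time kept the paternal call in LR-RL in 1 of 6 cases and the japonica call in YW-WY in 2 of 5. Without base 911 the LR-RL call was japonica, with maternal shares of 67.5% in LR and 61.1% in RL. Without base 240 it was indica, with 59.8% in LR and 68.2% in RL. Without base 774 the YW-WY call was maternal, with 69.0% in YW and 70.0% in WY. The summed BT1 calls therefore depended on which SNPs were summed, and no direction is drawn from them.

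Read depth also varied along both transcripts. In AGPS2 the depth was 49078 reads in LR against 52871 in RL, and 20916 in YW against 41702 in WY at base 987. It dropped to 5862 in LR against 6633 in RL, and 3542 in YW against 7177 in WY at base 1830. In RPM, the depth in YW was below that in WY at all 6 SNPs, with log2 ratios between -1.02 and -0.87.

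In BT1 the order of YW and WY changed along the transcript. Base 371 had 22547 reads in YW and 8320 in WY, and base 774 had 29010 in YW and 63116 in WY. In RPM, the log2 ratio of YW over WY was -0.20 at base 13, 1.45 at base 371, -1.11 at base 774, -1.21 at base 911 and -1.01 at base 1597. The ratio of LR over RL was above 0 at all 6 BT1 SNPs, between 0.07 and 1.04.

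**Figure D3:**
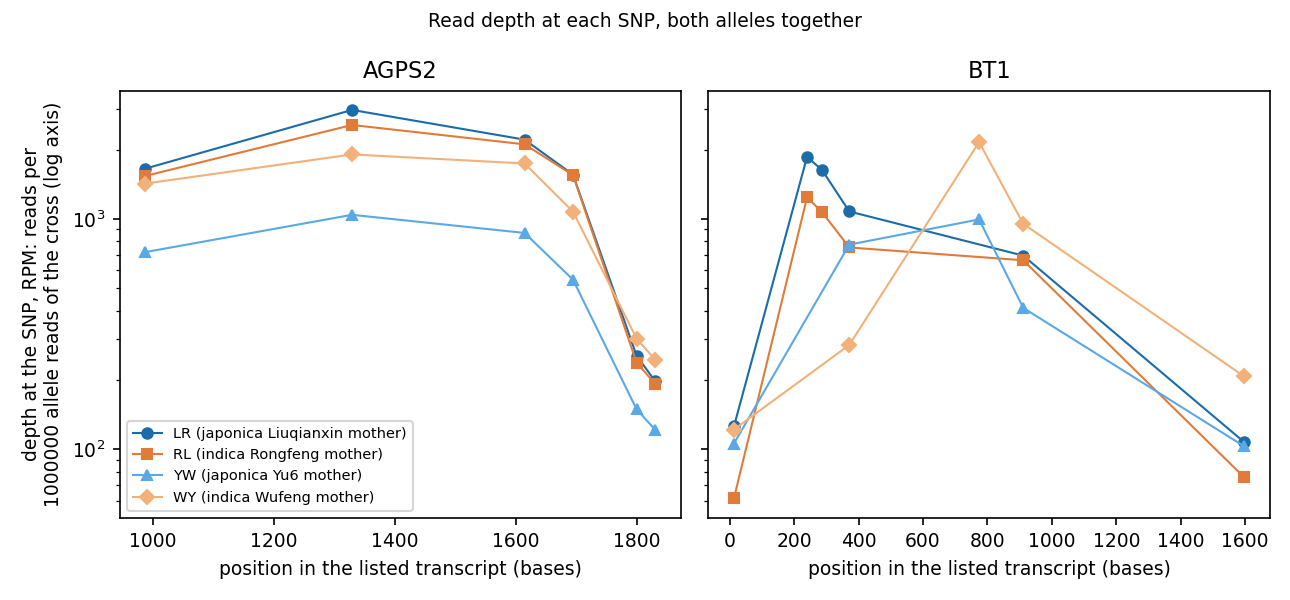
Depth at each SNP in RPM (log axis), both alleles together, against position in the listed transcript (bases) for AGPS2 and BT1. AGPS2 keeps YW below WY at every SNP. In BT1 YW is above WY at base 371 and below it at the other SNPs.

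Total levels were compared between reciprocal crosses in RPM, summed over SNPs. AGPS2 had 8839 RPM in LR and 8178 in RL, and 3445 in YW and 6691 in WY. AGPL2 had 3798 in LR and 3260 in RL. BT1 had 5490 in LR and 3859 in RL, and 2389 in YW and 3720 in WY. Levels of different genes are not compared here, because a sum grows with the number of SNPs and with the length read. In bulk endosperm, fewer cells of a type and less RNA per cell cannot be told apart.

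The log2 ratio of the cross with the japonica mother over the cross with the indica mother was 0.11 for AGPS2 in LR-RL (95% counting interval 0.10 to 0.12). It was 0.22 for AGPL2 and 0.51 for BT1, beside a median of 0.24 over all tested loci. In YW-WY it was -0.96 for AGPS2 (-0.97 to -0.95) and -0.64 for BT1 (-0.65 to -0.63), beside a median of 0.44. The AGPS2 level in YW was 0.515 times that in WY, and 3.02% of loci had a lower ratio. For BT1 6.47% of loci had a lower ratio. These are single pooled values with no test. Scaled by the TMM factors of edgeR, the ratio was -0.13 for AGPS2 and -0.02 for AGPL2 in LR-RL, so neither has a direction there. The same scaling gave 0.27 for BT1 in LR-RL, and -1.38 for AGPS2 and -1.06 for BT1 in YW-WY.

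Both AGPS2 and BT1 thus had a lower level in YW than in WY. Over the BT1 SNPs shared by both tables the level was 1394 RPM in YW and 1566 in WY, a smaller gap than over all its SNPs, and 2004 in LR and 1551 in RL. The endosperm marker sum was about equal in YW and WY and lower in LR than in RL. Single markers differed from it: NF-YB1 had 612 RPM in LR and 70.5 in RL, and 679 in YW and 340 in WY. RPBF had 1387 in LR and 1983 in RL, and 1532 in YW and 3660 in WY. The green marker sum, with reads from both parental alleles, was higher in YW than in WY and higher in LR than in RL. The part of either marker group in the levels of the members was not tested.

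The only tests with the cross sets as replicates were joint fits of all 4 crosses over 9753 loci, with 1 residual degree of freedom per locus. In edgeR's quasi-likelihood test the joint parental departure was 0.16 for AGPS2 (SE 0.28, adjusted p = 0.984) and -0.07 for BT1 (SE 0.26, adjusted p = 0.987). A maternal call was held by 2.55% of loci and a paternal call by 6.71% in that fit. The joint log2 ratio of total level, japonica mother over indica mother, was -0.74 for AGPS2 (SE 0.65, edgeR adjusted p = 0.587) and -0.38 for BT1 (SE 0.60, edgeR adjusted p = 0.781). In that fit 1.51% of loci were called higher and 0.933% lower. Neither gene passed in either fit.

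The 2 cross sets were compared with each other in a z test on counting errors, adjusted over 9753 loci. For AGPS2 the parental departure was 0.02 in LR-RL against 0.30 in YW-WY, a difference of -0.28 (adjusted p of the z test 5.85e-290, counting error only). For BT1 it was -0.16 in LR-RL against 0.01 in YW-WY, a difference of -0.17 (1.35e-73). The median difference over all loci was -0.25, and 39.2% of loci were called higher in YW-WY, against 3.74% higher in LR-RL. The difference of AGPS2 thus lay near that of the median locus. Relative to the cross medians it was -0.02 for AGPS2 and 0.08 for BT1.

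The strain departure of AGPS2 was 0.32 in LR-RL against 0.43 in YW-WY, a difference of -0.11 (adjusted p of the z test 3.76e-44). That of BT1 was -0.11 in LR-RL against 0.07 in YW-WY, a difference of -0.18 (7.80e-79). The median over all loci was -0.28, with 44.1% of loci called higher in YW-WY and 5.4% in LR-RL. Relative to the cross medians both differences changed sign, to 0.20 for AGPS2 and 0.13 for BT1.

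**Figure D4:**
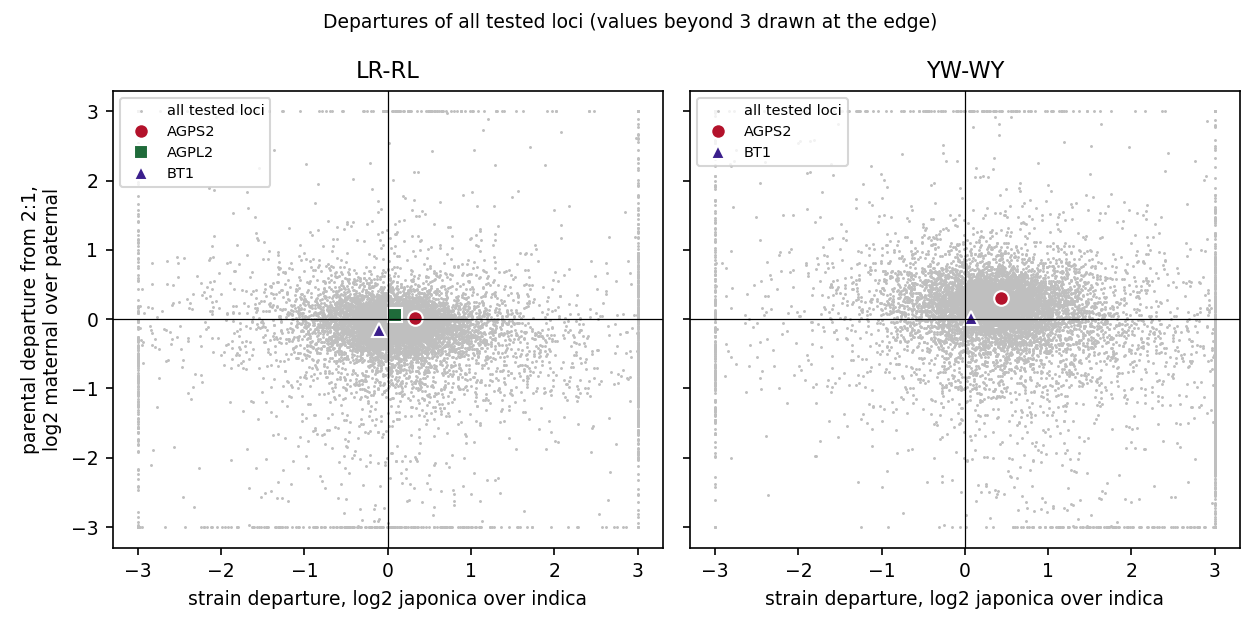
Parental departure (log2 maternal over paternal relative to 2 to 1, vertical) against strain departure (log2 japonica over indica, horizontal) of every tested locus, with the members marked; values beyond 3 are drawn at the edge. The members sit inside the dense centre of both panels, with strain departures between -0.11 and 0.43.

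The genes around these 3 in the pathway were read from lists of 43 loci, of which 36 were analysed here. In LR-RL 32 were tested: 7 had a maternal call (2.03% of all tested loci), 0 a paternal (6.87%), 9 a japonica (20.2%) and 6 an indica call (11.1%), and 10 had none. Against the cross medians these counts were 8 maternal, 0 paternal, 7 japonica and 8 indica, with all-loci shares of 2.96%, 5.73%, 16.2% and 14.3%. In YW-WY 32 were tested: 10 had a maternal call (5.99% of all tested loci), 0 a paternal (3.73%), 12 a japonica (32.4%) and 0 an indica call (5.23%), and 10 had none. Against the cross medians they were 10 maternal, 0 paternal, 7 japonica and 5 indica, with all-loci shares of 3.36%, 5.58%, 17.5% and 13.5%. The 0 indica calls in YW-WY thus held against 2 to 1 but not against the medians. The lists were not matched to all loci by depth. The median tested locus had 394 reads in LR and 375 in RL, while SUS3 had 451634 and 406091. At high depth the test passes on very small departures, so no excess of a call is read from these counts. The median parental departure of the listed loci was 0.00085 in LR-RL and 0.26 in YW-WY, beside medians over all tested loci of -0.07 and 0.15.

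Of the other AGPase subunits, 2 were tested in each set. AGPS1, the second small subunit gene by name, is annotated as a large subunit, a mismatch of the same kind as for AGPS2. It had a maternal share of 67.6% in LR and 67.7% in RL (maternal call), and 74.6% in YW and 64.1% in WY (japonica call). AGPL3, a large subunit gene, had 62.8% in LR and 79.8% in RL (indica call), and 73.4% in YW and 69.4% in WY (maternal call). With the cross medians as the standard AGPS1 had no call in either set, and AGPL3 kept its indica call in LR-RL and had none in YW-WY. AGPS1 had 1141 RPM in LR and 1135 in RL, and 920 in YW and 1132 in WY. Small subunit genes are similar in sequence, so reads could be shared between AGPS1 and AGPS2, and their values are uncertain to that extent.

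Sucrose is turned into the substrate of AGPase by sucrose synthase, UDP-glucose pyrophosphorylase and the hexose phosphate enzymes. Of these 10 loci, 1 had a maternal, 4 a japonica and 2 an indica call in LR-RL, and 2 had a maternal and 5 a japonica call in YW-WY. Against the cross medians 3 had a maternal, 3 a japonica and 2 an indica call in LR-RL, and 1 had a maternal, 3 a japonica and 2 an indica call in YW-WY. These counts are read beside the all-loci shares just given. The sucrose synthase gene SUS3 had a maternal share of 68.4% in LR and 68.1% in RL, and 71.7% in YW and 67.5% in WY, with a maternal call in both sets. Its call against the cross medians was maternal in LR-RL and indica in YW-WY. SUS2 had 69.6% in LR and 65.8% in RL, and 76.8% in YW and 66.1% in WY, with a japonica call in both sets against 2 to 1 and a maternal call in both against the cross medians. The total of SUS2 was 2637 RPM in YW and 5710 in WY, and that of SUS3 was 6501 in YW and 15084 in WY. These log2 ratios of YW over WY, -1.11 and -1.21, were the lowest of the 10 loci. The median of the 10 was 0.14, with 5 below 0, and plastid phosphoglucomutase had the highest at 0.71.

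Starch synthases, branching and debranching enzymes come after ADP-glucose in the pathway. Of 12 tested loci in LR-RL, 2 had a maternal, 2 a japonica and 3 an indica call. In YW-WY 4 of 12 had a maternal and 3 a japonica call. Against the cross medians 2 had a maternal, 2 a japonica and 4 an indica call in LR-RL, and 5 had a maternal, 2 a japonica and 2 an indica call in YW-WY. The all-loci shares are those given for the lists together. Granule-bound starch synthase GBSSI, which makes amylose, had a maternal share of 12.2% in LR and 95.03% in RL, an indica call with a strain departure of -3.55. Starch synthase SSIIIa had 73.8% in LR and 73.8% in RL, and 83.7% in YW and 71.0% in WY, with a maternal call in both sets. The debranching enzyme gene ISA3 had 98.8% in YW and 0.116% in WY, a japonica call.

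Of the sugar transporters, SWEET11, which exports sugar toward the filial tissue, had a maternal share of 100% in LR (267 reads) and 100% in RL (129 reads), and 99.9% in YW and 99.1% in WY. Of the regulators, NF-YC12 had 80.8% in LR and 96.6% in RL, and 77.4% in YW and 97.7% in WY, a maternal call in both sets. RPBF, a DOF-type transcription factor of storage genes, had 89.4% in LR and 74.9% in RL (maternal call), and 94.6% in YW and 38.8% in WY (japonica call). The parental departures were 7.54 and 6.70 for SWEET11 in LR-RL and in YW-WY, and 2.44 and 2.59 for NF-YC12. The members lay between -0.16 and 0.30. SWEET11 had no paternal reads in LR or RL. Its 7.54 is therefore set by its depth and the constant added to each count, and is not a measured ratio. The 95% Wilson intervals of its maternal share began at 98.6% in LR and 97.1% in RL. Its 6.70 in YW-WY rests on few paternal reads. SWEET11 and NF-YC12 had the highest values of their lists in both sets. Others lay nearer the members. The sucrose transporter gene SUT1 was at -0.09 in LR-RL and 0.10 in YW-WY, and NF-YB1 at 0.0071 and 0.07. FLO2 was at -0.04 and 0.18, and bZIP58 at -0.17 and 0.41. SWEET15, at 0.35 and 0.92, and RPBF, at 1.32 and 0.73, lay further from the members than these. These values are given side by side, and the lists were not tested against other loci.

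**Figure D5:**
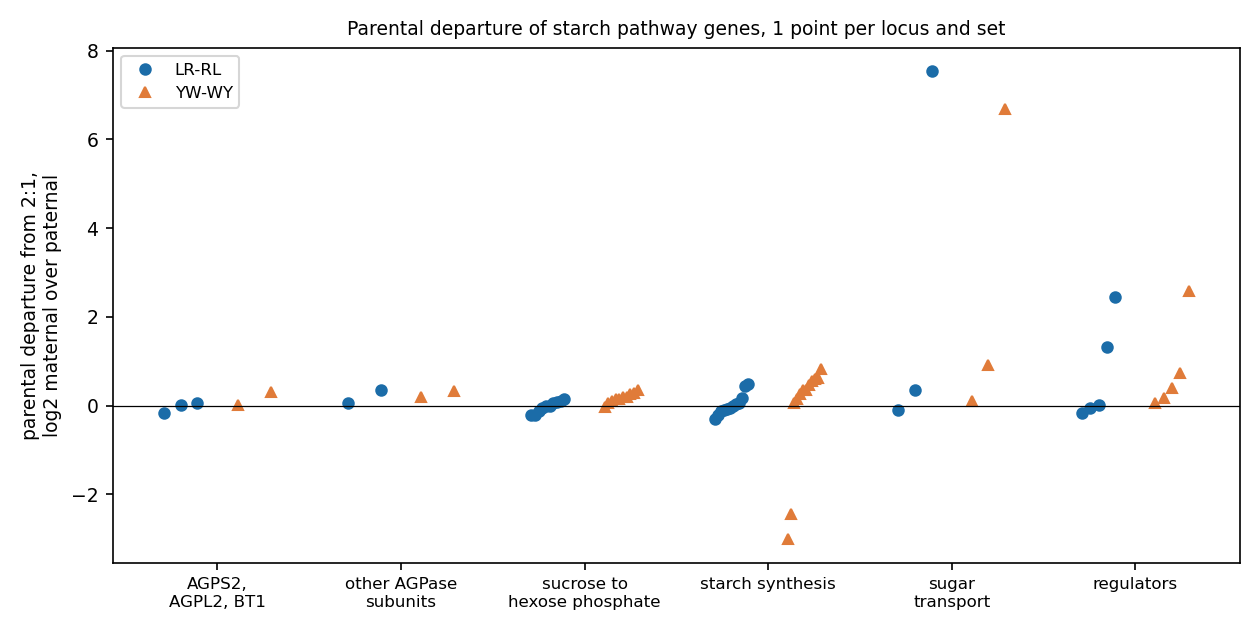
Parental departure (log2 maternal over paternal relative to 2 to 1) of each tested locus of the pathway lists, 1 point per locus and set. AGPS2, AGPL2 and BT1 lie between -0.16 and 0.30. SWEET11 lies highest at 7.54 (LR-RL) and 6.70 (YW-WY). It had no paternal reads in LR-RL, so its height there is set by depth and the constant added to each count.

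The loci with the most similar allele ratios were found by Euclidean distance of the log2 maternal to paternal ratios, among loci with at least 0.25 of the member's counts in every cross. For AGPS2, over 4 crosses and 38 loci, the nearest was LOC_Os03g46770, an RNA recognition motif protein, at a distance of 0.19. SUS2 followed at 0.30 and LOC_Os02g30630, a thiamine pyrophosphate enzyme, at 0.31. For AGPL2, over 2 crosses and 111 loci, SUS2, the elongation factor 1-gamma gene LOC_Os06g37440 and the ribosomal protein L34 gene LOC_Os09g24690 all lay at 0.05. For BT1, over 4 crosses and 79 loci, the nearest was the ribosomal protein L13 gene LOC_Os03g54890 at 0.33. Another carrier protein gene, LOC_Os02g48720, followed at 0.36, and the UDP-glucose pyrophosphorylase gene UGP1 at 0.44. These BT1 distances rest on its summed ratios, which changed with the SNPs summed. Without base 911 its maternal shares were 67.5% in LR and 61.1% in RL, and 70.3% in YW and 61.2% in WY. The nearest loci of BT1 are uncertain to that extent. LOC_Os03g46770 had a maternal share of 73.9% in LR and 61.3% in RL, and 75.8% in YW and 65.0% in WY.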

How the data were processed

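The authors deposited, per SNP and cross, whole-number counts of maternal and paternal reads, pooled over replicates per the file headers. Their p-values and ratios were not used. Trimmomatic 0.32, Bowtie2 2.2.1, SAMtools 0.1.16 and GATK 3.5 are named, without order or roles, in the submitters' processing notes; the build was not given in the sources used here. All SNPs have at least 11 reads per cross.

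Counts were summed over the SNPs of a locus. Tested loci averaged at least 10 counts per library, so 30 for LR-RL crosses and 20 for YW-WY crosses. Ratios had 0.5 added to each count. Binomial tests, Wilson intervals and z tests used Python 3.11.15 with SciPy 1.17.1. Joint fits used the quasi-likelihood test of edgeR 4.0.16 in R 4.3.3, and DESeq2 1.42.0 was an alternative. The fit of alleles had a common dispersion and the dosage offset. The fit of totals had TMM and a dispersion that followed a trend over level. The scripts were tested on simulated data. Other alternatives changed the null ratio, the SNPs summed, the filter and the scaling. Named genes are the 3 members, the pathway lists and the 3 loci nearest to each member. Members and lists were chosen with earlier results of these data known.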

Additional observations from a re-analysis of the deposited data

Results flagged for a closer look

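The 2 cross sets differed, in a z test on counting errors adjusted over 9753 loci, in all 4 departures that could be compared when all SNPs were summed. For AGPS2, LR-RL minus YW-WY was -0.279251 for the parental and -0.108313 for the strain departure (log2). For BT1 it was -0.171173 for the parental and -0.176798 for the strain departure. The median locus differed by -0.25 and -0.28, and YW and WY also had a median maternal share of 75.1% and 62.9%. The part of that shift in these differences was not tested beyond the comparison with the cross medians, where those of the AGPS2 strain, BT1 parental and BT1 strain departures changed sign. The BT1 differences also rest on SNPs that disagree with one another. With only the best covered SNP the parental one was -0.010 (z test adjusted p 0.661) and no longer passed. That SNP is base 240 in LR-RL and base 774 in YW-WY, so different positions are compared there. Over the SNPs read in both sets the BT1 differences were -0.38 (parental) and -0.60 (strain), larger in size than with all SNPs, and both passed.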

How the results depend on the processing

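No paired analysis was possible because the tables hold 1 pooled column per allele and cross, with no replicate columns, and for the same reason no replicate could be left out. Of the alternatives for the members, 73 were unchanged, 17 changed direction, 8 lost a call, 7 gained one and 12 moved a level that has no test. The 73 do not measure robustness, because many of them could not change. All AGPS2 SNPs are deep and shared by both sets, so using shared SNPs, a read minimum per SNP or no filter left its sums identical. Others are joint fits or total levels, where there was no call to keep. With cross medians as the null, the AGPS2 departures in YW-WY were 0.13 (parental, now called) and 0.017 (strain, no longer called), and those of AGPL2 were 0.15 (now called) and -0.016. Those of BT1 were -0.078 (no longer called) and -0.22 (now called) in LR-RL, and -0.16 and -0.35 in YW-WY. The set differences were then 0.20 (AGPS2 strain), 0.084 (BT1 parental) and 0.13 (BT1 strain).

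With only the best covered SNP, BT1 had a parental departure of -0.14 and a strain departure of 0.21 in LR-RL, and -0.13 and 0.12 in YW-WY, with set differences of -0.010 (parental, z test adjusted p 0.661, no longer called) and 0.093 (strain). With only SNPs in both tables these departures were -0.19 and -0.64 in LR-RL, and 0.19 and -0.036 in YW-WY. The set differences were then -0.38 (parental) and -0.60 (strain). Without 1 SNP at a time the BT1 parental departure ran between -0.17 and -0.15 in LR-RL and between -0.050 and 0.19 in YW-WY, and the strain departure between -0.26 and 0.20 in LR-RL and between -0.047 and 0.29 in YW-WY.

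The log2 total, japonica mother over indica mother, was with TMM, with DESeq2's size factors and with the best SNP -0.13, -0.13 and 0.22 for AGPS2 in LR-RL, and 0.27, 0.27 and 0.58 for BT1. In YW-WY it was -1.38, -1.40 and -0.87 for AGPS2, and -1.06, -1.08 and -1.11 for BT1. For AGPL2 it was -0.021 with TMM and -0.020 with the size factors. With SNPs in both tables it was 0.37 (LR-RL) and -0.17 (YW-WY) for BT1.

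Counts of calls over all loci moved by over 1.5 times as follows. With the best SNP, LR-RL had 146 maternal, 468 paternal, 1340 japonica and 785 indica calls, against 221, 747, 2198 and 1201, and YW-WY had 388 maternal calls, against 685. With cross medians YW-WY had 384 maternal, 2008 japonica and 1542 indica calls, against 685, 3710 and 599. The joint parental fit had 147 maternal and 352 paternal calls with 1 strain effect, and 86 and 283 without YW (chosen after seeing the data), against 249 and 654. The joint total fit had 284 higher and 256 lower loci with DESeq2, 277 and 202 with the best SNP, and 75 and 54 without a filter, against 147 and 91. In every joint fit run neither AGPS2 nor BT1 passed. Where a SNP choice moved BT1, the value changed with the SNPs summed, and why these SNPs disagree was not tested. The cause of the other changes was not tested either.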
